A study of Caenorhabditis elegans with 54 samples.

Results

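The cathepsin B-like genes of Caenorhabditis elegans described here are cpr-1, cpr-2, cpr-3, cpr-4, cpr-5, cpr-6, cpr-8 and cpr-9. They were taken by gene symbol from a table of estimated counts of 19909 genes, and all 8 named genes were found. They were described over all 18 conditions of the series, which hold 54 libraries.

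Cathepsin B is a cysteine protease of the papain family. It is made as an inactive precursor, and it cuts proteins in lysosomes or, when secreted, outside the cell. In the worm many such proteases work in the intestine, the organ that digests bacterial food, stores fat and makes yolk. Cystatins are small proteins that block papain-like proteases, and aspartyl proteases (cathepsin D-like enzymes) digest proteins beside them. Dauer is an arrested larval stage with a closed mouth and no feeding, and dauer exit restores feeding and growth.

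All worms carried the daf-2 mutation, a change in the insulin receptor gene that makes larvae form dauers, so no group was wild type in the insulin pathway. Dauers had 4 ages, written D1, D4, D15 and D30 after the number of days in dauer. They were collected before exit (0 h) and at 6 h and 24 h of exit. The dauers were kept on plates with bacteria at a warm temperature. Exit was started by a move to fresh bacteria and a cooler temperature, so 6 h and 24 h also differ from 0 h in both. In 5 further conditions dauers had received UV on dauer day 1 and were collected on D1 at 6 h and 24 h of exit or on D4 at 0 h, 6 h and 24 h. L3 larvae, grown without passing through dauer, were the reference stage. Each condition had 3 libraries, named biological replicates, and each library was a pool of many whole worms. In such bulk samples fewer cells of a type and less RNA per cell cannot be told apart.

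The genes lie on chromosome V of WBcel235, apart from cpr-6 on X. cpr-5 (WBGene00000785, V, 1132598 to 1134036, minus strand, 3 exons) and cpr-8 (WBGene00021070, V, 1134602 to 1139182, plus strand, 6 exons) are neighbours that point away from each other across 566 bp. cpr-1 (WBGene00000781, V, 11975551 to 11976756, plus strand, 3 exons) and cpr-9 (WBGene00010204, V, 12003053 to 12004584, plus strand, 3 exons) are 26297 bp apart. cpr-4 (WBGene00000784, V, 6614674 to 6615851, plus strand, 2 exons) overlaps a piRNA gene annotated on the other strand. cpr-3 (WBGene00000783, V, 15296834 to 15298700, minus strand, 4 exons) and cpr-2 (WBGene00000782, V, 16532936 to 16534100, minus strand, 3 exons) stand alone. cpr-6 (WBGene00000786, X, 6607207 to 6609045, plus strand) has 8 exons. The coding regions run from 325 codons in cpr-2 to 378 codons in cpr-6. Where members share near-identical stretches, the transcript counting may have split reads between them, and the amount of this was not tested.

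Libraries held between 670302 and 12952656 estimated counts in total. The D4 libraries were the shallowest, from 670302 to 5978390, whereas all others held at least 5455652. Each of 14 intestine marker genes had a condition mean above 1 CPM (the count relative to the library total, scaled by TMM over all 54 libraries) in all 18 conditions, and the lowest was 1.94 CPM for pept-1, the oligopeptide transporter of the gut. Whole-worm libraries do not show in which tissue the members were expressed. The untreated D4 0 h libraries stood apart. Their summed level of 6 yolk protein genes (vit genes, a list added after seeing the data) was 678, 507 and 2003 CPM, against at most 252 CPM in any other library. These 3 libraries entered the dauer aging slope, the steps from D1 to D4 and from D4 to D15, exit from D4 and the UV comparison at D4 0 h, and their part in those differences was not tested.

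The members fell into different courses across the 18 conditions. cpr-1, cpr-3, cpr-4, cpr-5 and cpr-9 were all low in D15 and D30 dauers at 0 h and 6 h and higher at 24 h of exit. cpr-2 shared the fall at D15, and it was high in every D4 condition and in D30 dauers. cpr-6 was at a high level everywhere, and cpr-8 was at a low level everywhere. Between the highest and lowest condition means, the fold was 6.21 for cpr-6 and 22.3 for cpr-8, 132 for cpr-3, 223 for cpr-2 and 512 for cpr-9. For cpr-4 it was 1634, and for cpr-1 and cpr-5 it rests on 7 and 4 counts in the lowest condition, D15 0 h.

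**Figure D1:**
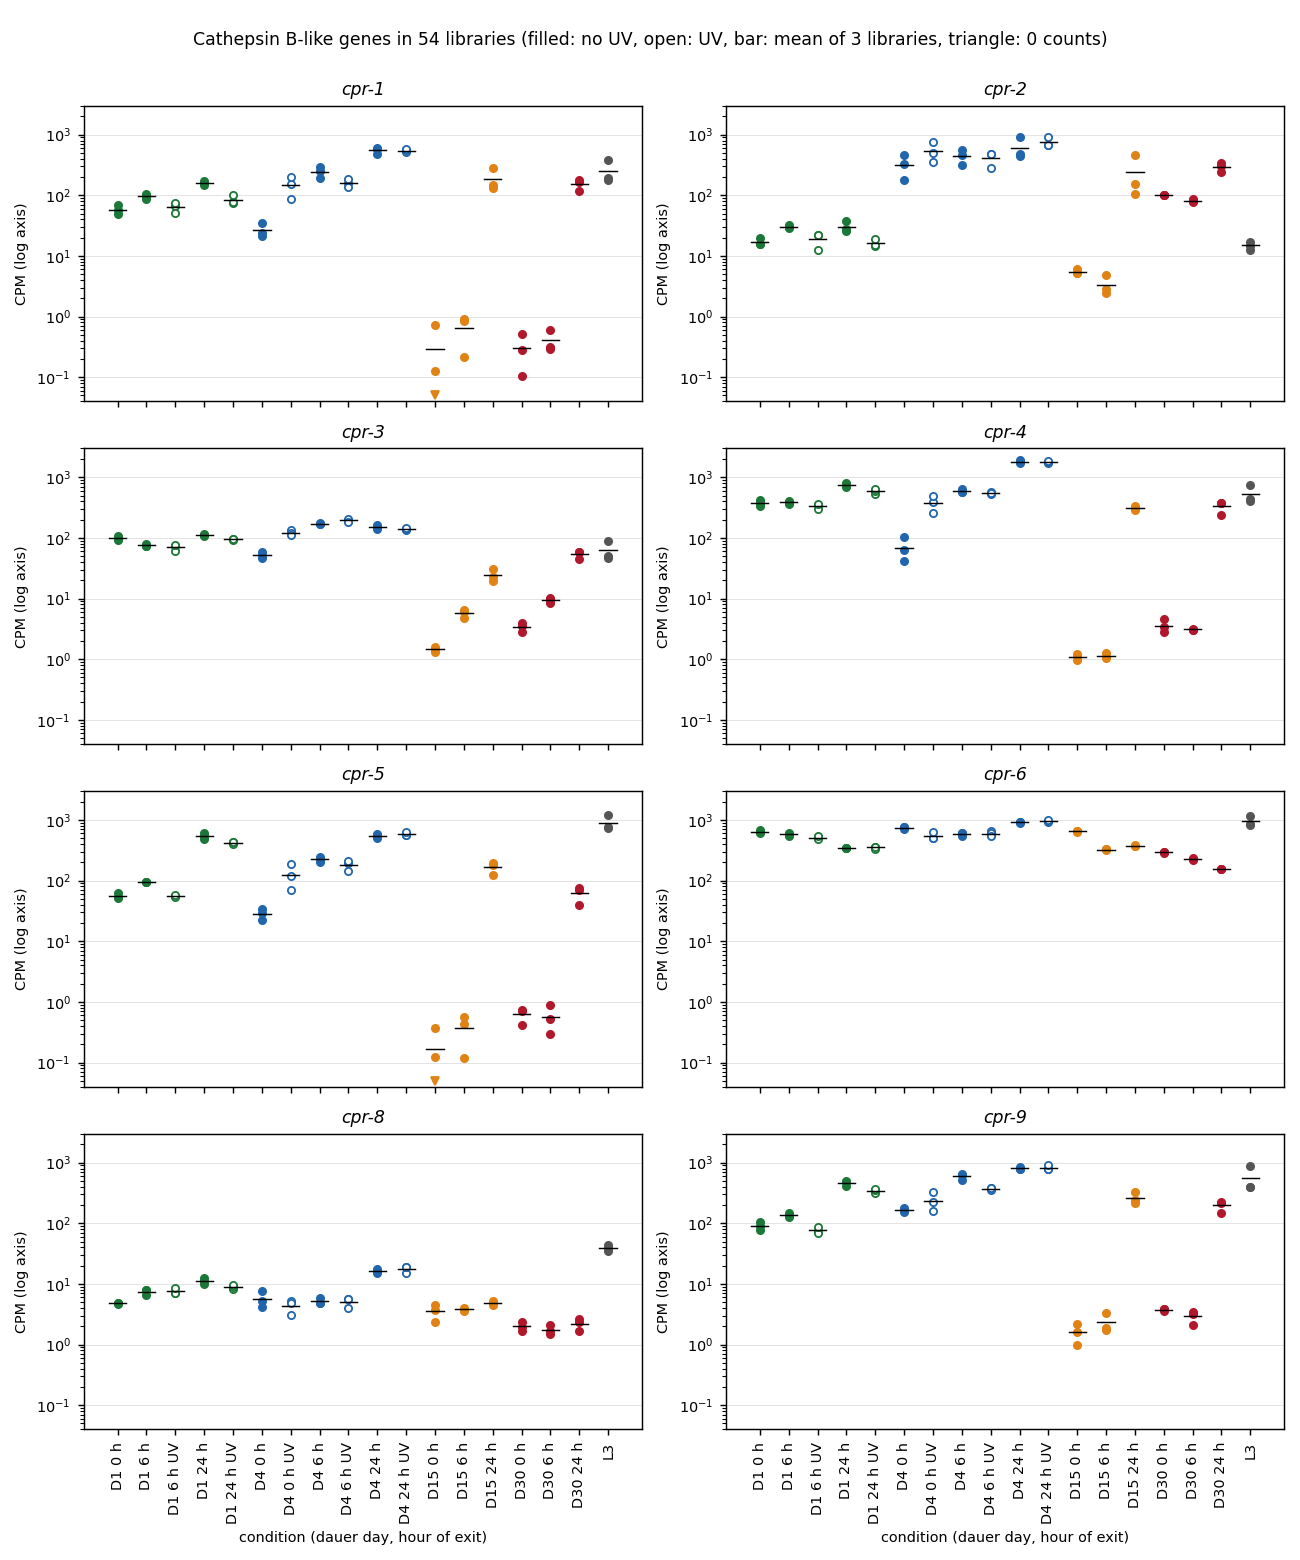
Level of the 8 cathepsin B-like genes in each of 54 libraries, in CPM on a log axis, by condition. Points are libraries (filled without UV, open with UV), bars are means of 3 libraries, and triangles mark libraries with 0 counts. cpr-1, cpr-4, cpr-5 and cpr-9 sit at or below 4.59 CPM in every D15 and D30 library at 0 h and 6 h and at or above 39.0 CPM in every library of these days at 24 h.

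Ordered by their means, many neighbouring conditions did not differ beyond the spread of their libraries. Of the 17 neighbouring pairs per gene, the libraries did not overlap in 10 for cpr-3, 8 for cpr-6, 6 for cpr-2, cpr-5 and cpr-9, 5 for cpr-4, 4 for cpr-1 and 3 for cpr-8. cpr-1 and cpr-4 were highest at 24 h of D4 exit, at 555 ± 58 (SD, n = 3) and 1807 ± 113.4 CPM. The UV-treated D4 libraries at 24 h came next for both genes and overlapped with the untreated ones. cpr-2 (750 ± 146 CPM), cpr-6 (966 ± 48 CPM) and cpr-9 (819 ± 75 CPM) were highest in the UV-treated D4 libraries at 24 h, again overlapping with the next condition. cpr-3 was highest at 6 h of D4 exit after UV (195 ± 13 CPM), apart from the next condition. cpr-5 (902 ± 267 CPM) and cpr-8 (39.2 ± 4.6 CPM) were highest in L3 larvae, apart from all other conditions. The lowest condition was D15 0 h for cpr-1, cpr-3, cpr-4, cpr-5 and cpr-9. It was D15 6 h for cpr-2, D30 24 h for cpr-6 and D30 6 h for cpr-8.

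Dauer aging was examined in the 12 dauer libraries at 0 h. Over the whole span 7 of the 8 members fell and 0 rose, beside 31.8% of 13884 genes that fell and 24.9% that rose. cpr-1, known as a gut cysteine protease, had 48.3, 57.5 and 68.2 CPM on D1, then 23.8, 21.5 and 35.3 CPM on D4. On D15 it had 0.125, 0.735 and 0 CPM, which are 1, 6 and 0 counts, and on D30 it had 0.105, 0.278 and 0.512 CPM, which are 1, 2 and 5 counts. The D1, D4 and later libraries formed 3 levels without overlap, whereas D15 and D30 overlapped. The fitted change of cpr-1 over 29 days was -9.50 ± 1.27 on the log2 scale (SE, edgeR's quasi-likelihood fit), given as a description without a test. That of cpr-5, also a description, was a fall by 7.38 ± 1.27. In edgeR's quasi-likelihood test cpr-4 fell by 6.54 ± 1.34 (adjusted p = 0.0013) and cpr-9 by 5.68 ± 1.25 (adjusted p = 0.0021) on the log2 scale. cpr-3 fell by 4.98 ± 0.96 (adjusted p = 8.6e-04), cpr-8 by 1.39 ± 0.30 (adjusted p = 0.0018) and cpr-6 by 1.18 ± 0.22 (adjusted p = 6.9e-04). cpr-1 and cpr-5 had under 10 counts in every D15 and D30 library. They passed the filter on low counts through the D1 and D4 libraries alone, where they are higher, so their call follows from the filter. Of the other 6 members 5 fell. Of 14 intestine markers 10 fell and 0 rose over the same span. The changes of cpr-6 and cpr-8 rest on D30. Without it cpr-6 was at -0.09 (adjusted p = 0.61) and cpr-8 at -0.59 (adjusted p = 0.14).

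The days did not follow a line. From D1 to D4, 3 members rose (36% of 13884 genes did) and 4 fell (34.1% of genes did). cpr-2 had the largest change of the 8, from 15.5, 15.7 and 19.9 CPM on D1 to 453, 181 and 325 CPM on D4. The groups were far apart, and D4 replicate 2 was the lowest of its group (log2 4.30 ± 0.23, adjusted p = 1.2e-13, edgeR). cpr-9 rose by 0.99 ± 0.09 (adjusted p = 9.7e-10) and cpr-6 by 0.30 ± 0.05 (adjusted p = 1.2e-05) on the log2 scale. cpr-4 fell from 340, 373 and 428 CPM to 63.1, 41.4 and 104 CPM, with no overlap (log2 -2.31 ± 0.16, adjusted p = 1.8e-11). cpr-1, cpr-5 and cpr-3 fell by 0.99, 0.88 and 0.80 on the log2 scale. cpr-8 was not called at 0.29 ± 0.26 (adjusted p = 0.32). This step rests on the D4 0 h libraries with yolk transcripts. Other markers moved in it too, with 10 of 10 body wall muscle markers and 8 of 9 hypodermis markers lower on D4 and 7 of 10 germline markers higher, and their part in the change of the members was not tested.

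From D4 to D15 all 8 members fell, beside 34.4% of the genes tested, and 0 rose, beside 31.6%. cpr-1 and cpr-5 passed the filter on low counts through the D1 and D4 libraries alone, so their call follows from the filter. Of the other 6 members 6 fell. The mean of cpr-9 was 105-fold lower on D15, that of cpr-4 62.9-fold, cpr-2 58.3-fold and cpr-3 35.9-fold lower. The D15 levels of cpr-1 and cpr-5 rest on 7 and 4 counts over 3 libraries. With 1 library left out the mean of cpr-1 was between 62.5-fold and 430-fold lower, the highest without D15 replicate 2, and that of cpr-5 between 114.8-fold and 466-fold lower, the highest without D15 replicate 1. No library of D15 overlapped with D4 for any of these 6 genes. cpr-6 fell from 759, 767 and 714 CPM to 658, 626 and 657 CPM, a small change without overlap (log2 -0.28 ± 0.05, adjusted p = 3.6e-05). The libraries of cpr-8 overlapped, at 5.26, 7.76 and 4.12 CPM on D4 and 2.37, 4.41 and 3.75 CPM on D15 (log2 -0.73 ± 0.26, adjusted p = 0.019). Without D4 0 h replicate 2 that call was lost (adjusted p = 0.15), and likewise without D15 0 h replicate 1 (adjusted p = 0.11). The same step lowered 9 of 14 intestine markers and 10 of 10 germline markers, and 4 intestine markers were higher. The slope over days 1, 15 and 30, which leaves out D4, called 7 members lower, beside 34.1% of 13693 genes, and 1 higher, beside 28.7%. In that slope cpr-1 and cpr-5 passed the filter through the D1 libraries alone, so their call again follows from the filter.

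From D15 to D30, 5 members rose (28.9% of genes did) and 2 fell (28.8% of genes did). cpr-2 again changed most, from 5.25, 6.00 and 5.20 CPM to 103, 99.6 and 99.9 CPM. The D30 libraries were tightly grouped and 18.4-fold above D15 in the mean (log2 4.25 ± 0.29, adjusted p = 2.1e-11). In the slope without D4, cpr-2 was the only member that rose (log2 2.72 over 29 days, adjusted p = 0.020), against -0.80 ± 1.42 (adjusted p = 0.65) with D4. cpr-3 and cpr-9 rose by 1.29 each on the log2 scale (adjusted p = 3.4e-04 and 0.0015, edgeR), to levels of 2.78 to 3.89 CPM and 3.62 to 3.89 CPM. The calls of cpr-4 (1.70, adjusted p = 0.039) and cpr-5 (1.92, adjusted p = 0.045) rest on low counts. Leaving out any of 5 of the 6 libraries lost the call of cpr-4, and any of 4 lost that of cpr-5, with 0 to 7 counts of cpr-5 per library. cpr-6 fell from 626 to 658 CPM to 285 to 300 CPM (log2 -1.08 ± 0.05, adjusted p = 1.9e-14), and cpr-8 fell by 0.75 ± 0.29 (adjusted p = 0.029). The fall of cpr-8 lost its call without any of 4 libraries, with adjusted p up to 0.18. cpr-1 did not pass the test (0.13 ± 1.10, adjusted p = 0.94).

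D1 dauers were compared with L3 larvae. Of the 8 members 5 were lower in D1 dauers (36.9% of 13419 genes were) and 1 was higher (38.7% of genes were). cpr-5 had 50.8, 53.7 and 62.9 CPM in D1 dauers and 742, 755 and 1210.4 CPM in L3 larvae. All D1 libraries were far below all L3 libraries, and L3 replicate 3 was the highest (log2 -3.98 ± 0.21, adjusted p = 1.2e-06, edgeR). cpr-8 had 4.86, 4.75 and 4.84 CPM against 39.8, 34.2 and 43.4 CPM, also without overlap (log2 -2.99 ± 0.13, adjusted p = 3.8e-07). cpr-9 was lower by 2.60 ± 0.33, cpr-1 by 2.10 ± 0.30 and cpr-6 by 0.54 ± 0.12 on the log2 scale (adjusted p = 1.7e-04, 3.4e-04 and 0.0042). cpr-3 was higher by 0.69 ± 0.22 (adjusted p = 0.023), and 4 of the 6 fits without 1 library lost that call. cpr-2 was not called, at 12.599, 17.2 and 14.8 CPM in L3 larvae (log2 0.23, 95% interval -0.12 to 0.58, adjusted p = 0.20). For cpr-4 the difference was -0.44 ± 0.22 (adjusted p = 0.098), and it passed the threshold without any single L3 library (adjusted p = 0.038, 0.042 and 0.038). L3 replicate 3 had the highest level of the 3 L3 libraries for every member but cpr-2. Scaling by library totals in place of TMM raised the median gene by 0.38 on the log2 scale in this comparison, and cpr-6 then lost its call (adjusted p = 0.18) and cpr-2 gained one (adjusted p = 0.0071).

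Dauer exit was examined first over 6 h. On D1, 5 of the 8 members rose between 0 h and 6 h (22.2% of 13383 genes did) and 2 fell (22% did). cpr-2, cpr-1, cpr-5, cpr-8 and cpr-9 rose by 0.82, 0.76, 0.75, 0.64 and 0.60 on the log2 scale, cpr-3 fell by 0.36 and cpr-6 fell by 0.14. On D4, 5 rose (24.4% of 11765 genes did) and 1 fell (22.5% did). There cpr-1 went from 23.8, 21.5 and 35.3 CPM to 250, 296 and 194 CPM, cpr-4 from 63.1, 41.4 and 104 CPM to 562, 653 and 562 CPM, and cpr-5 from 34.5, 22.2 and 28.96 CPM to 204, 245 and 221 CPM. All 3 genes were without overlap between the hours (log2 3.18 ± 0.18, 3.07 ± 0.22 and 2.98 ± 0.12, adjusted p = 3.2e-08, 2.4e-07 and 2.2e-09, edgeR). cpr-9 and cpr-3 rose by 1.83 and 1.71, and cpr-6 fell by 0.33 on the log2 scale. The 0 h side of these D4 rises is the libraries with yolk transcripts. In the UV-treated D4 worms, whose 0 h libraries lack them, the means at 0 h and 6 h were closer. They were 147 and 160 CPM for cpr-1, 381 and 554 CPM for cpr-4 and 125 and 182 CPM for cpr-5. For cpr-3 they were 122 and 195 CPM and for cpr-9 236 and 371 CPM. The libraries of cpr-3, cpr-4 and cpr-9 did not overlap between these hours, and those of cpr-1 and cpr-5 did. The share of all genes that lay apart between these hours was not counted, so this describes these genes alone. These worms also differ from the untreated ones in UV and depth, and the part of yolk transcripts, UV or depth was not tested.

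On D15 and D30 the first 6 h of exit looked different. On D15, 6 members had enough counts to be tested at these hours, and 1 rose (30% of 12454 genes did) while 2 fell (28.5% did). On D30, again of 6 tested, 1 rose (13.4% of 12475 genes did) and 2 fell (15% did). The member that rose was cpr-3 on both days. It had 1.499, 1.59 and 1.33 CPM at 0 h of D15 and 6.43, 4.73 and 6.05 CPM at 6 h. On D30 it had 3.58, 2.78 and 3.89 CPM at 0 h and 9.49, 10.3 and 8.35 CPM at 6 h. On neither day did the hours overlap (log2 1.96 ± 0.24 and 1.45 ± 0.18, adjusted p = 9.8e-07 and 1.9e-05, edgeR). cpr-6 went from 658, 626 and 657 CPM to 328, 333 and 316 CPM on D15 (log2 -0.98 ± 0.04, adjusted p = 3.3e-13) and fell by 0.36 ± 0.04 on D30 (adjusted p = 1.2e-05). cpr-2 fell by 0.69 ± 0.23 on D15 (adjusted p = 0.016) and by 0.30 ± 0.06 on D30 (adjusted p = 7.2e-04). The differences of cpr-4 between 0 h and 6 h were 0.05 on D15 and -0.16 on D30, with 95% intervals of -0.68 to 0.77 and -0.65 to 0.34. cpr-1 and cpr-5, at 0 to 9 counts in every library of these 4 conditions, were not tested. The changes of 7 of the 8 members over the first 6 h differed between the 4 days in a test of the interaction, beside 62.9% of 14562 genes (adjusted p from 3.3e-15 for cpr-3 to 0.0067 for cpr-2, and 0.091 for cpr-8). cpr-1 and cpr-5 are among these 7, and they passed the filter on low counts through the D1 and D4 libraries alone. Their part in this count is a description, and of the other members all but cpr-8 passed.

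Over the whole 24 h of exit most members rose on every day. The change given is the slope on exit hour times 24 h. On D1 all 8 members passed the test (61.9% of 13729 genes did, in either direction), and 7 of them rose and 1 fell (31.4% of genes fell). On D4, 5 rose (22.6% of 12607 genes did) and 0 fell (21% did). On D15, 6 rose (22.4% of 13153 genes did) and 0 fell (19.9% did), and on D30, 6 rose (24.6% of 13086 genes did) and 1 fell (22.2% did). On D15 and D30, cpr-1 and cpr-5 passed the filter on low counts only through the 24 h libraries, where they are high, so their call there follows from the filter. Of the other 6 members 4 rose on each of these days. The median change was 1.14 on D1 and 1.67 on D4 over the 8 members, and 4.86 on D15 and 2.72 on D30 over those 6, on the log2 scale, beside a median of all genes tested between -0.04 and 0.02.

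cpr-1 had 145, 133 and 284 CPM at 24 h of D15 exit and 180, 166 and 118 CPM at 24 h of D30 exit. These levels compare with at most 8 counts per library at 0 h and 6 h, and no libraries overlapped. The fitted rise was 1.38 ± 0.16 on D1 and 3.19 ± 0.79 on D4 (adjusted p = 2.2e-05 and 0.0087, edgeR). On D15 and D30 it was 10.36 ± 0.54 and 10.45 ± 0.29, given as a description without a test. cpr-5 had 178, 124 and 198 CPM at 24 h on D15, where 0 h held 3, 1 and 0 counts, and 71.1, 74.5 and 39.0 CPM at 24 h on D30, where 0 h held 7, 3 and 7 counts. Its fitted rise, again a description, was 11.13 ± 0.40 on D15 and 7.76 ± 0.38 on D30. Fits without a 24 h library of D15 or of D30 could not test cpr-1 and cpr-5, since fewer than 3 libraries then reached 10 counts. On D1 the rise of cpr-5 was the largest of the 8 members, from 50.8, 53.7 and 62.9 CPM at 0 h to 552, 599 and 477 CPM at 24 h, without overlap (log2 3.38 ± 0.09, adjusted p = 6.6e-10).

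cpr-4 and cpr-9 also rose more on D15 and D30 than on D1 and D4 in their fitted values. The protein of cpr-4 has been described as a factor that irradiated worms secrete. cpr-4 rose from 1.12, 1.22 and 0.968 CPM to 302, 285 and 343 CPM on D15, and from 3.37, 4.59 and 2.77 CPM to 378, 381 and 238 CPM on D30. The 24 h libraries were 281-fold and 93-fold above the 0 h libraries in the mean. The slopes times 24 h, a measure other than these folds, were log2 9.37 ± 0.48 and 7.66 ± 0.37 (adjusted p = 3.5e-07 and 5.0e-09, edgeR). On D1 and D4 the slope of cpr-4 times 24 h was 1.12 ± 0.11 and 3.68 ± 0.75. For cpr-9 it was 8.17 ± 0.43 on D15 and 6.69 ± 0.36 on D30. Its levels went from 0.968 to 2.20 CPM at 0 h to 219 to 332 CPM at 24 h on D15. On D30 they went from 3.62 to 3.89 CPM to 149 to 228 CPM. On D1 and D4 the slope of cpr-9 times 24 h was 2.41 ± 0.10 and 1.70 ± 0.46.

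cpr-3 rose by 3.54 ± 0.32 on D15 and 3.68 ± 0.17 on D30. It reached 23.0, 19.5 and 30.3 CPM on D15 and 57.7, 59.8 and 44.3 CPM on D30. On D1 it fell by 6 h before it rose, and the slope (0.39 ± 0.15, adjusted p = 0.039) lost its call in 5 of 9 fits without 1 library. On D4 it was already up at 6 h, at 171, 176 and 169 CPM, and at 162, 142 and 153 CPM at 24 h, so that its slope missed the threshold (0.93 ± 0.49, adjusted p = 0.15). The difference between 24 h and 0 h alone was 1.52 (adjusted p = 1.0e-07).

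cpr-2 had 152, 106 and 471 CPM at 24 h of D15 exit, where replicate 3 was far above the others. All 3 were above the 0 h libraries (log2 6.18 ± 0.75, adjusted p = 1.1e-04). On D30 it rose from 103, 99.6 and 99.9 CPM to 299, 341 and 246 CPM (log2 1.76 ± 0.20, adjusted p = 1.1e-05). On D1 the rise of 0.64 ± 0.24 (adjusted p = 0.040) lost its call in 4 of 9 fits without 1 library. On D4, 453, 181 and 325 CPM at 0 h overlapped with 921, 475 and 438 CPM at 24 h, and the slope was not called (0.84 ± 0.36, adjusted p = 0.078).

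cpr-6 took another course. It fell during exit on D1, from 600, 635 and 695 CPM at 0 h to 339, 350 and 346 CPM at 24 h (log2 -0.85 ± 0.06, adjusted p = 5.4e-07), and on D30, from 297, 285 and 300 CPM to 157, 156 and 153 CPM (log2 -0.87 ± 0.06, adjusted p = 1.0e-07). Neither day had overlap between 0 h and 24 h. On D15 the slope of -0.51 ± 0.26 was not called (adjusted p = 0.14). The fall lay between 0 h and 6 h, and 24 h was above 6 h by 0.28 (adjusted p = 3.0e-04). On D4 the difference between 24 h and 6 h was 0.63 (adjusted p = 6.7e-07), and the slope was 0.40 ± 0.15 (adjusted p = 0.054). cpr-8 rose on D1 from 4.86, 4.75 and 4.84 CPM to 12.4, 11.04 and 10.05 CPM (log2 1.15 ± 0.16, adjusted p = 8.3e-05). On D4 it rose to 17.5, 15.1 and 16.1 CPM (log2 1.65 ± 0.25, adjusted p = 4.6e-04). On D15 and D30 its slopes were 0.51 ± 0.20 (adjusted p = 0.062) and 0.21 ± 0.25 (adjusted p = 0.52).

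**Figure D2:**
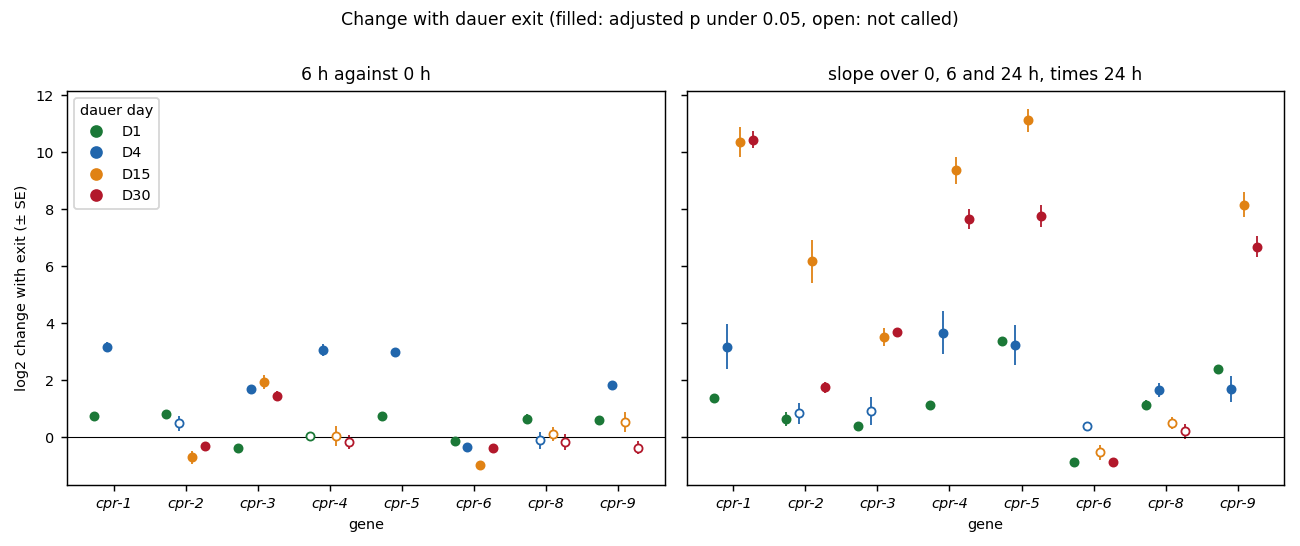
Log2 change of the 8 genes with dauer exit (± SE, edgeR), for 6 h against 0 h (left) and for the slope over 0 h, 6 h and 24 h times 24 h (right), by dauer day. Filled points passed an adjusted p of 0.05, open points did not, and cpr-1 and cpr-5 have no D15 and D30 point on the left because they were not tested there. On the right, D15 and D30 lie above D1 and D4 for cpr-1, cpr-4, cpr-5 and cpr-9, with values from 6.69 to 11.13. The D15 and D30 points of cpr-1 and cpr-5 there rest on the filter passed through the 24 h libraries alone.

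The exit slopes of all 8 members differed between the 4 dauer days in the interaction test, beside 64.2% of 14975 genes (adjusted p from 1.7e-10 for cpr-9 to 3.7e-04 for cpr-8, edgeR). Without D4, 7 members passed, beside 52% of 14816 genes, and cpr-6 did not (adjusted p = 0.39). cpr-1 and cpr-5 are in both counts, although their D15 and D30 slopes rest on the 24 h libraries. For these 2 genes the interaction is a description. The other members all passed with D4, and all but cpr-6 passed without it. The untreated D4 0 h libraries with yolk transcripts entered the exit slope of D4. Between 24 h and 6 h alone, which leaves them out, 6 members rose (21.1% of 11910 genes did) and 1 fell (16.5% did) on D4. On D1, 6 rose (30.1% of 13491 genes did) and 1 fell (31.1% did). On D15, 7 rose (26.4% of 12908 genes did) and 0 fell (23.6% did). On D30, 6 rose (19.8% of 12884 genes did) and 1 fell (18.6% did). cpr-1 and cpr-5 were among those that rose on both days. There they passed the filter on low counts only through the 24 h libraries, so their call follows from the filter. Markers of the gut and of muscle moved on the same days. Of 14 intestine markers 8 rose and 0 fell during exit from D15, and 13 rose and 0 fell during exit from D30. Their summed level went from 1380 to 1414 CPM at 0 h to 3086 to 3709 CPM at 24 h on D15 and from 770 to 804 CPM to 1968 to 2539 CPM on D30. That is a smaller ratio than for the sum of the 7 members without cpr-6. This sum went from 13.6 ± 2.3 to 1201 ± 407 CPM on D15 and from 114 ± 1.6 to 1096 ± 227 CPM on D30. With cpr-6 the sum of all 8 members went from 660 ± 16 to 1579 ± 411 CPM on D15. On D30 it went from 409 ± 9.1 to 1252 ± 229 CPM. The ratio with cpr-6 was closer to that of the markers on both days. Of 10 body wall muscle markers 8 rose and 0 fell in exit from D15, and 6 rose and 2 fell in exit from D30. The part of these markers in the change of the members was not tested.

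The levels at 24 h of exit were set against L3 larvae, and these comparisons share the 3 L3 libraries. After D1 exit 2 members were higher than in L3 (33.8% of 14283 genes were) and 3 were lower (35.7% were). After D4 exit 4 were higher (30.9% were) and 2 lower (32.2% were). After D15 exit 1 was higher (38.1% were) and 6 lower (37.6% were), and after D30 exit 1 was higher (40.7% were) and 6 lower (39.6% were). The higher one on D15 and D30 was cpr-2. It was 16.3-fold above L3 after D15 exit, 19.9-fold after D30 exit and 41.1-fold after D4 exit, where every library was above all L3 libraries (log2 4.05 ± 0.50, 4.35 ± 0.50 and 5.41 ± 0.52, adjusted p = 2.2e-06, 8.3e-07 and 2.5e-07, edgeR). Without replicate 3 at 24 h, the D15 mean was 8.66-fold above L3. After D1 exit it had 37.5, 27.7 and 25.3 CPM against 12.599, 17.2 and 14.8 CPM in L3 (log2 1.05 ± 0.52, adjusted p = 0.083).

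cpr-5 and cpr-8 were lower than in L3 after exit from every day. The log2 differences of cpr-5 were -0.70, -0.65, -2.41 and -3.83 after D1, D4, D15 and D30 exit (adjusted p = 0.010, 0.019, 1.4e-07 and 9.3e-10, edgeR). Those of cpr-8 were -1.78, -1.22, -2.996 and -4.10 (adjusted p = 6.3e-09, 9.8e-07, 2.2e-11 and 1.2e-12). Under total-count scaling, which raised the median gene by 0.35 to 0.46 in these comparisons, cpr-5 lost its call after D1 and D4 exit (adjusted p = 0.24 and 0.26). The D4 call of cpr-5 was also lost without D4 24 h replicate 3 (adjusted p = 0.069) or L3 replicate 3 (adjusted p = 0.090). cpr-6 was close to L3 after D4 exit (0.00 ± 0.08, adjusted p = 0.98) and lower by 1.43, 1.30 and 2.57 after D1, D15 and D30 exit. The D4 difference of cpr-6 was 0.15 without L3 replicate 3 (adjusted p = 0.011) and 0.36 under total-count scaling (adjusted p = 0.0020), which also called cpr-9 higher (adjusted p = 0.0045). cpr-4 was above L3 after D4 exit by 1.84 ± 0.20 and after D1 exit by 0.55 ± 0.19, and below it by 0.74 ± 0.20 and 0.62 ± 0.19 after D15 and D30 exit (adjusted p = 1.0e-06, 0.020, 0.0031 and 0.0082). Under total-count scaling the D15 and D30 calls of cpr-4 were lost (adjusted p = 0.11 and 0.31). Without L3 replicate 3 the D30 call was lost too (adjusted p = 0.053), and the D1 call was lost without L3 replicate 1 or 2 (adjusted p = 0.10 and 0.095) or D1 24 h replicate 2 (adjusted p = 0.060). cpr-1 was above L3 after D4 exit by 1.19 ± 0.29 (adjusted p = 0.0021). After D15 exit it was not called with replicate 3 at 24 h (-0.41, adjusted p = 0.21) and was lower without it (-0.83, adjusted p = 0.010). After D30 exit it was at -0.67 ± 0.29 (adjusted p = 0.042), and without L3 replicate 3 at -0.25 (adjusted p = 0.34).

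The makeup of the family shifted with these courses. Shares here are of the summed level per kb of transcript, which allows a comparison between genes. cpr-6 held 97.7% ± 0.4 (SD, n = 3) of the family in D15 dauers at 0 h and 94.7% ± 1.0 at 6 h. In D30 dauers at 0 h it held 68.8% ± 0.5, and cpr-2 held 27.9% ± 0.5. At 24 h of exit cpr-6 held 23.6% ± 5.6 on D15 and 11.8% ± 2.2 on D30. cpr-4 was then the largest single share on D30 (27.2% ± 2.1), close to cpr-2 (25.9% ± 1.6). On D4 at 24 h cpr-4 held 35.0% ± 0.9. In L3 larvae cpr-6 (28.6% ± 3.5) and cpr-5 (27.8% ± 0.6) held the largest shares, and cpr-2 held 0.547% ± 0.18.

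**Figure D3:**
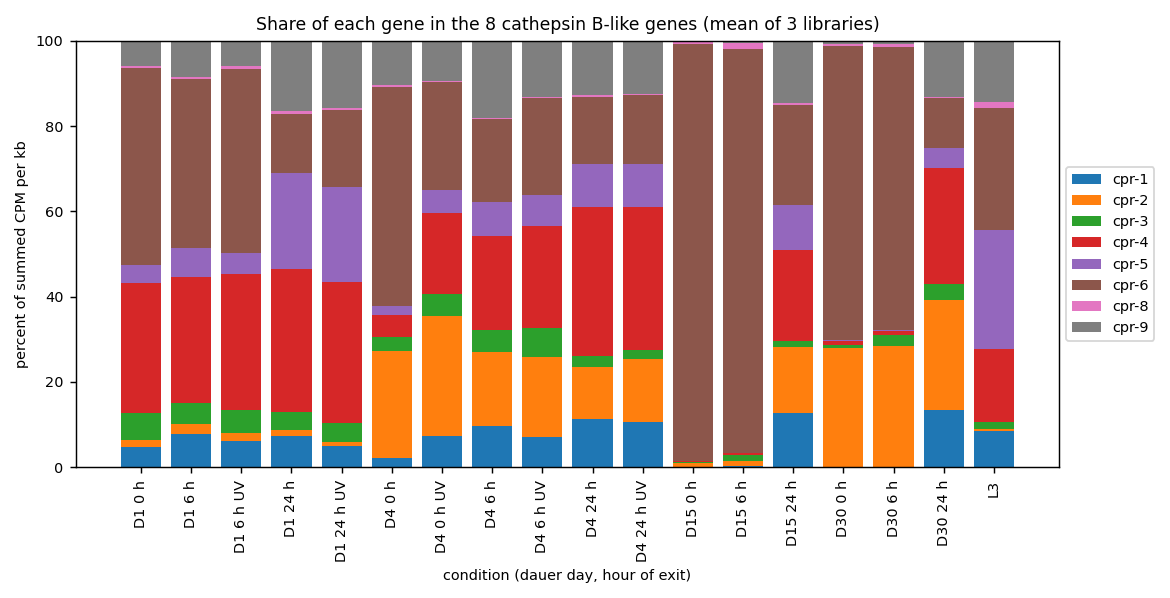
Percent of the summed level (CPM per kb of transcript) of the 8 cathepsin B-like genes held by each gene, as the mean of 3 libraries in each of 18 conditions. cpr-6 fills 97.7% of the bar of D15 dauers at 0 h and 11.8% at 24 h of D30 exit, and cpr-2 is wide in the D4 and D30 bars and narrow in L3.

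After UV on dauer day 1 most members were lower in D1 worms during exit. At 6 h, 6 of the 8 were lower than without UV (13.4% of 13463 genes were) and 0 were higher (14.4% were). At 24 h, 6 were lower (6.13% of 13113 genes were) and 0 higher (5.54% were). cpr-1 had 88.5, 97.8 and 106 CPM at 6 h without UV and 66.2, 51.3 and 73.7 CPM with UV. At 24 h it had 172, 158 and 146 CPM without UV and 74.7, 78.3 and 101 CPM with UV. The groups were apart at both hours (log2 -0.62 ± 0.11 and -0.94 ± 0.10, adjusted p = 0.0012 and 9.7e-05, edgeR). cpr-2 was lower by 0.68 ± 0.16 and 0.94 ± 0.15 and cpr-9 by 0.82 ± 0.07 and 0.44 ± 0.07 on the log2 scale. cpr-5 was lower by 0.75 ± 0.05 at 6 h, at 55.8, 53.4 and 57.8 CPM against 93.4, 93.7 and 93.4 CPM, and by 0.38 ± 0.06 at 24 h. cpr-4 was lower by 0.20 ± 0.06 and 0.39 ± 0.07. At 6 h that call was lost without any single untreated library (adjusted p from 0.054 to 0.15). cpr-6 was lower at 6 h (-0.18 ± 0.05, adjusted p = 0.015), a call lost without untreated replicate 2 or 3, and was at 0.01 ± 0.04 at 24 h (adjusted p = 0.95). cpr-3 was lower at 24 h (-0.27 ± 0.05, adjusted p = 0.0037) and at -0.12 ± 0.08 at 6 h. cpr-8 was not called at either hour. In 1 fit over all 54 libraries, with a shared spread, 4 members were called at 6 h, where cpr-2 and cpr-4 lost their calls (adjusted p = 0.25 and 0.40), and 1 (cpr-1) was called at 24 h. The share of all genes called in that fit is not given, so these counts describe the members alone. Of 14 intestine markers in the same comparisons, 0 were higher and 1 was lower at 6 h, and 0 passed the test at 24 h. At 6 h 7 of 10 neuron markers, 6 of 10 hypodermis markers and 9 of 14 other papain-like proteases were also lower with UV, and at 24 h 3, 1 and 4 genes of these lists were. Their part in the difference of the members was not tested.

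In D4 dauers at 0 h, collected after UV on dauer day 1, 6 of the 8 members were higher than without UV (18.1% of 11420 genes were) and 1 was lower (14.4% were). cpr-1 had 152, 86.6 and 201 CPM with UV and 23.8, 21.5 and 35.3 CPM without (log2 2.50 ± 0.25, adjusted p = 6.4e-06, edgeR). cpr-4 had 387, 262 and 494 CPM against 63.1, 41.4 and 104 CPM (log2 2.51 ± 0.28, adjusted p = 1.6e-05). cpr-5 had 121, 69.8 and 185 CPM against 34.5, 22.2 and 28.96 CPM (log2 2.21 ± 0.25, adjusted p = 2.3e-05). All 3 genes were without overlap, and UV replicate 2 was the lowest of its group for each. cpr-3 was higher by 1.29 ± 0.13 (adjusted p = 5.4e-06) and cpr-6 lower by 0.36 ± 0.09 (adjusted p = 0.0066). The libraries of cpr-2 and cpr-9 overlapped between the groups (0.84 ± 0.28 and 0.57 ± 0.17, adjusted p = 0.038 and 0.019). The cpr-2 call was lost without UV replicate 1 or 3 or untreated replicate 2 (adjusted p from 0.069 to 0.22). The cpr-9 call was lost without UV replicate 3 or untreated replicate 1 or 2 (adjusted p from 0.052 to 0.13). cpr-8, with 11 counts in all over the 3 UV libraries, was not called.

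The D4 0 h groups also differed in other measures. The UV libraries held 670302 to 856794 counts and the untreated ones 4069749 to 5978390. With the untreated libraries thinned to the depth of the UV libraries, 6 members were higher and 1 lower, as before. The share of all genes called after thinning is not given, so this count describes the members alone. The summed yolk protein genes were at 507 to 2003 CPM without UV and 0 to 4.83 CPM with UV. The summed level of 10 germline markers was 517 to 563 CPM without UV and 287 to 297 CPM with UV, and 6 of the 8 that were tested were lower with UV. Of 14 intestine markers 2 were higher and 4 lower, and their summed level was 2085 to 2276 CPM without UV and 1958 to 1989 CPM with UV. Of 10 body wall muscle markers 8 were higher. The part of these measures in the difference of the members was not tested. The UV-treated D4 dauers lay above all untreated D1 dauers for cpr-1, cpr-2, cpr-3, cpr-5 and cpr-9 and overlapped with them for cpr-4, cpr-6 and cpr-8. These groups differ in UV, dauer day and depth at once. The share of all genes that lay apart between them was not counted, so this is a description of the members alone.

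During exit from D4 most members did not pass the test for a UV difference. At 6 h 0 members were higher (0.936% of 10896 genes were) and 1 was lower (0.441% were). It was cpr-9, at 638, 616 and 518 CPM without UV and 356, 383 and 375 CPM with UV, without overlap (log2 -0.65 ± 0.08, adjusted p = 0.0028, edgeR). cpr-1 had 250, 296 and 194 CPM without and 158, 182 and 139 CPM with UV, also without overlap, and just missed the threshold (log2 -0.59 ± 0.14, adjusted p = 0.075). It passed in DESeq2 (adjusted p = 0.016) and without the filter on low counts (adjusted p = 0.0010). The 54-library fit took the call from cpr-9 (adjusted p = 0.052). At 24 h 0 members were higher (0.126% of 11936 genes were) and 0 lower (0.00838% were), and 0 members had an unadjusted p under 0.05 in edgeR or an adjusted one under 0.05 in DESeq2. The 95% intervals of the log2 difference at 24 h were -0.18 to 0.15 for cpr-1, -0.11 to 0.12 for cpr-4, -0.08 to 0.25 for cpr-5 and -0.16 to 0.77 for cpr-2. Without D4 24 h replicate 1, which had the highest cpr-2 of its group, cpr-2 was called higher (0.72, adjusted p = 0.030). In the interaction test over D4 the UV difference of 6 members depended on the hour, beside 22.8% of 12780 genes, and cpr-2 and cpr-8 did not pass (adjusted p = 0.38 and 0.67). Whether UV differences differed between D1 and D4 at the same hour was not tested.

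**Figure D4:**
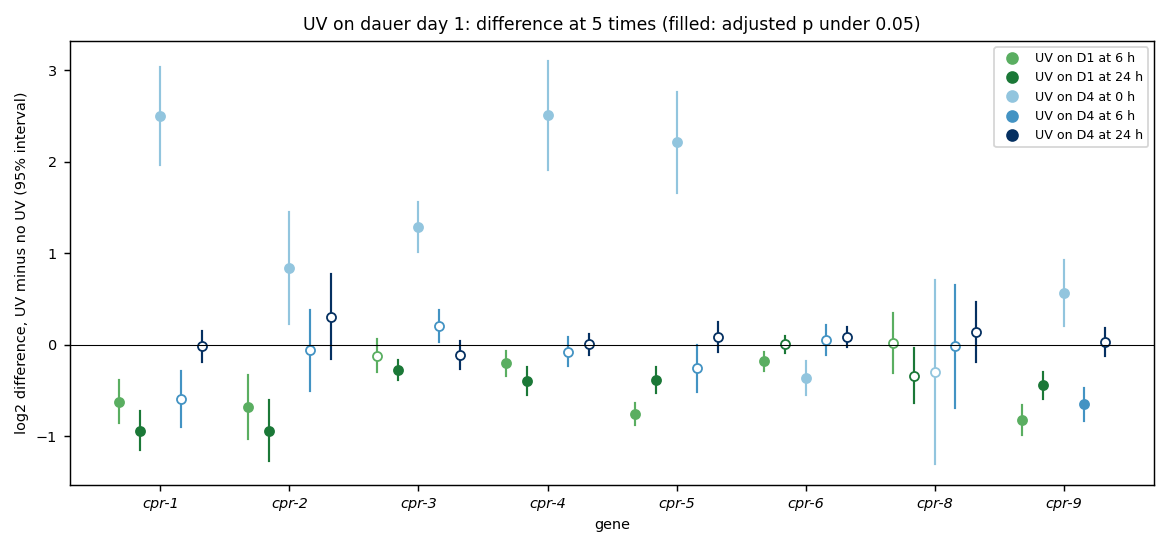
Log2 difference of each of the 8 genes between worms with UV on dauer day 1 and untreated worms, with 95% intervals of the edgeR fit, on D1 at 6 h and 24 h and on D4 at 0 h, 6 h and 24 h. Filled points passed an adjusted p of 0.05. The D4 0 h points lie at 0.57 to 2.51 for the 6 genes that were higher, the called D1 points lie between -0.18 and -0.94, and the D4 24 h points lie within 0.31 of 0.

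Other proteases of the gut were set beside the members. During exit from D15, 9 of 11 aspartyl proteases tested rose and 1 fell, among them asp-2 (9.55 ± 0.39), asp-14 (8.33 ± 0.48) and asp-6 (5.20 ± 0.44) on the log2 scale. In the same exit asp-4, a cathepsin D-like protease with a role in cell death, fell by 1.16 ± 0.11. During exit from D30, 7 rose and 2 fell, with asp-2 at 10.71 ± 0.29 and asp-4 at -1.39 ± 0.09. From D4 to D15, 10 of 12 fell and 2 rose, with asp-3 at -3.97, asp-6 at -4.70 and asp-1 at -3.67 and asp-4 at 0.83. In D4 dauers at 0 h 10 of 11 were higher with UV and 1 was lower. The median change of the list was 5.26 in D15 exit and 2.13 in D30 exit.

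Of 10 other papain-like proteases tested in exit from D15, 5 rose and 1 fell with a median of 0.74, and of 12 tested in exit from D30, 4 rose and 2 fell with a median of 0.11. cpz-2, a cathepsin Z-like gene, rose by 1.02 ± 0.08 and 1.47 ± 0.13 on the log2 scale, and tag-196 fell by 0.43 ± 0.09 and 0.69 ± 0.04. From D4 to D15, 8 of 14 fell and 4 rose, with a median of -0.83. cpz-2 fell by 0.71 ± 0.06 and cpl-1, a cathepsin L-like gene, rose by 0.21 ± 0.04 in that step. W07B8.4, another papain-like gene, lies 668 bp from cpr-5 and rose by 0.98 ± 0.21 during exit from D4 (adjusted p = 0.0042, edgeR).

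The cystatin gene cpi-1 fell during exit on every day. It fell by 2.53 ± 0.14 on D1, 1.80 ± 0.38 on D4, 1.26 ± 0.20 on D15 and 1.07 ± 0.12 on D30 on the log2 scale, and cpi-2 fell on D1 (0.60 ± 0.05) and D4 (0.25 ± 0.08). Against L3 larvae, D1 dauers had more of both. In dauer aging both fell, as 7 of the 8 members did. Their summed level went from 702 to 731 CPM on D1 to 114 to 120 CPM on D30 at 0 h.

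Genes of the lysosome and of gut regulation were counted in the same comparisons. Of the lysosomal genes other than proteases, 12 of 19 rose and 1 fell in exit from D15, with aagr-1 (acid alpha-glucosidase, 3.68 ± 0.16), nuc-1 (an acid DNase, 5.104 ± 0.30) and asm-3 (acid sphingomyelinase, 6.09 ± 0.55) having the smallest p. In exit from D30, 12 of 18 rose and 1 fell. Of 8 gut transcription factors 0 rose and 2 fell in exit from D15, mdl-1 by 1.04 and daf-16, the FOXO factor under daf-2, by 0.34 on the log2 scale. In exit from D30, 3 of 7 rose, among them elt-2, the GATA factor of intestinal genes, by 1.81 ± 0.23. From D4 to D15 elt-2 fell by 1.48 ± 0.09, and daf-16 rose by 1.41 ± 0.08. The intestine markers pept-1 and act-5, the actin of gut microvilli, fell by 4.96 ± 0.12 and 2.98 ± 0.06 in the same step, and ifb-2, a gut intermediate filament gene, rose by 0.72 ± 0.05. Over the 14 intestine markers 9 fell and 4 rose, with a median of -0.57.

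The likeness of courses was measured by Pearson's r over the 18 condition means of log2 CPM, as a description without a test. The conditions share days and libraries of similar depth. Among the 28 pairs of members, cpr-1, cpr-4, cpr-5 and cpr-9 had r from 0.97 to 0.98 with each other, and cpr-3 had 0.90 to 0.94 with these 4. cpr-6 had at most 0.42 with any of these 5 genes and 0.70 with cpr-8. cpr-2 had 0.54 with cpr-9 and -0.02 with cpr-8. The neighbours cpr-5 and cpr-8 had 0.74. Over 9973 other genes, the most alike were T21H3.1 for cpr-1 (0.98), asp-6 for cpr-4 (0.98), R10H10.3 for cpr-5 (0.99), asp-3 for cpr-9 (0.98) and lec-8, a galectin, for cpr-3 (0.99). The course of cpr-8 was closest to those of the cuticle collagen genes col-125 and col-39 (0.96 each), that of cpr-6 to alg-1, an Argonaute gene of the microRNA pathway (0.92), and that of cpr-2 to Y47H9C.1 (0.90).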

How the data were processed

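RNA of whole daf-2 worms was sequenced in 54 libraries of 18 conditions, and groups were taken from the sample labels. After fastp trimming, the authors used Salmon with a WormBase ParaSite transcriptome (genome sequence as decoy) to estimate transcript counts, which tximport collapsed to genes. The deposited values are estimated counts per gene, not scaled for depth (8.49% to 64.7% of a library's values are not whole), and they were rounded to whole numbers here. Of 19909 genes, 19897 matched WBcel235 (Ensembl annotation) by identifier, which gave the coordinates.

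A gene was kept where 3 or more of the compared libraries reached 10 counts. After TMM scaling all kept genes were tested two-sided with glmQLFit and glmQLFTest (edgeR 4.0.16, limma 3.58.1, R 4.3.3; tables in Python 3.11.15), with Benjamini-Hochberg adjustment at 0.05. Exit was a slope over exit hour, dauer aging a slope over dauer day, and other comparisons were contrasts of groups. Alternatives were RLE size factors, no filter, an adjusted p under 0.01, DESeq2 1.42.0, a replicate block, a single fit of the 54 libraries, leaving out any 1 library, and single hours or fewer days. Total-count scaling, 24 h against 6 h, fits without D4, interactions at 6 h and thinning were added after seeing the data. The test was tested on simulated data. Levels are CPM scaled by TMM over the 54 libraries.

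The members, the gene lists and the rule for named genes were chosen with earlier results of these data known. All members are named. From each list described, up to 3 genes of lowest p among those that moved the way most calls did, and 1 that moved the other way, are named where space allows. For likeness, the gene or genes with the highest r are named, of up to 3 per member. Estimated counts do not count molecules, and p-values rest on the spread between libraries, with 3 per condition. In the slope fits they also take in the departure of the groups from a straight line.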

Additional observations from a re-analysis of the deposited data

Results flagged for a closer look

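The change with exit hour differed between the 4 dauer days for all 8 members in the interaction test of edgeR. The adjusted p was 2.1e-10 for cpr-1, 3.5e-08 for cpr-2, 1.5e-07 for cpr-3, 1.7e-09 for cpr-4 and 1.1e-08 for cpr-5. It was 3.4e-05 for cpr-6, 3.7e-04 for cpr-8 and 1.7e-10 for cpr-9. Of all genes tested 64.2% passed the same test. cpr-1 and cpr-5 had under 10 counts in every D15 and D30 library at 0 h and 6 h, so their values here are a description.

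The difference between UV-treated and untreated worms on D4 differed between 0 h, 6 h and 24 h for 6 members. The adjusted p was 7.1e-07 for cpr-1, 1.2e-06 for cpr-3, 2.0e-06 for cpr-4, 6.0e-06 for cpr-5, 0.0020 for cpr-6 and 4.5e-04 for cpr-9. The untreated D4 0 h libraries in this test are those with yolk transcripts.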

How the results depend on the processing

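Over all alternatives, 309 of 325 counts of called members stayed within 1.5 times, 9 were lower and 7 higher. Of 2580 values of single members 2436 stayed on their side of the threshold, 97 lost the call and 37 gained one. A further 10 changed sign with a call in the main or the alternative fit. Changes of sign where neither fit gave a call are counted among the 2436, and values of the interaction tests have no sign. The exit count on D4 was 8 with 24 h against 0 h alone. The exit counts on D15 and D30 were 3 each, of 6 tested, with 6 h against 0 h alone. Beside them 30% of genes rose and 28.5% fell on D15, and 13.4% rose and 15% fell on D30. For the other counts of this paragraph the share of all genes is not given, so they describe the members alone. With an adjusted p under 0.01 the count was 4 for D30 against D15 and 3 for 24 h of D1 exit against L3. In 1 fit of all libraries it was 1 for UV on D1 at 24 h and 0 for UV on D4 at 6 h. UV on D4 at 6 h called 2 members without the filter and 2 with DESeq2. With each library left out, the counts ranged from 4 to 6 for D30 against D15, 1 to 2 for UV on D4 at 6 h and 0 to 1 for UV on D4 at 24 h. The causes of these changes were not tested, beyond the fewer hours or libraries that an alternative holds.

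Values that changed sign are listed here where the main or the alternative fit gave a call. Those between 0 h and 6 h were -0.36 for cpr-3 on D1, -0.33 for cpr-6 and -0.10 for cpr-8 on D4, and -0.69 for cpr-2 on D15. On D30 they were -0.30 for cpr-2, -0.16 for cpr-4 and -0.36 for cpr-9. Those between 6 h and 24 h were -0.19 for cpr-3 on D4 and 0.28 for cpr-6 on D15. Without D4 the aging slope of cpr-2 was 2.72.

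Replicate numbers did not pair the libraries: of 459 same-numbered pairs in different conditions 4 had a correlation of deviations over 0.1. With the replicate block, the count for UV on D4 at 6 h was 2. Depth limits the values of cpr-1 and cpr-5 in D15 and D30 dauers, at 0 to 9 counts per library, and of cpr-8 in the D4 UV libraries.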
